A study of Homo sapiens with 16 samples.

Results

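Messenger RNA levels of 8 genes of the noradrenergic state of neuroblastoma were followed across 16 libraries of SH-SY5Y cells: PHOX2A, HAND2, GATA2, GATA3, ISL1, TBX2, MYCN and ALK. They were taken by symbol from the table of normalised read counts, which held all 8 among its 19898 genes, and all 8 passed the filter on low values (10 or more in at least 4 libraries), as did 16984 genes in all. SH-SY5Y is an established human neuroblastoma line without amplified MYCN, differentiated here for 15 days into what the labels call dopamine-like neurons. The 4 groups of 4 libraries were cells on flat dishes without toxin (2D untreated), cells in a silk-collagen scaffold without toxin (3D untreated), and both kinds of culture given 1 mM MPP (1-methyl-4-phenylpyridinium) for 48 h from day 13 (2D MPP and 3D MPP). MPP is a toxin that enters catecholamine cells through their monoamine transporters and blocks complex I of the respiratory chain. All 4 groups are the same line with the same differentiation, so that a single cell line stands behind every value.

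Neuroblastoma arises from the sympathoadrenal branch of the neural crest, and most tumours hold a noradrenergic state in which a small circle of transcription factors bind and activate each other's regulatory DNA as well as their own. PHOX2A, HAND2, GATA2, GATA3, ISL1 and TBX2 belong to this circle. In normal development PHOX2A and HAND2 bring on noradrenaline synthesis, the GATA factors and ISL1 keep sympathetic neurons alive and maturing, and TBX2 is a T-box repressor that holds cells in the cycle. MYCN is the MYC family member of the developing sympathetic lineage and the best known oncogene of this tumour. ALK is a receptor tyrosine kinase of the same lineage, and SH-SY5Y is known to carry an activating ALK mutation in its kinase domain, a change these values cannot show.

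In GENCODE version 29 (GRCh38), PHOX2A lies at chr11:72239077-72245664, HAND2 at chr4:173524969-173530229, GATA2 at chr3:128479427-128493185 and ALK at chr2:29192774-29921566, all on the minus strand. GATA3 lies at chr10:8045378-8075203, ISL1 at chr5:51383391-51394738, TBX2 at chr17:61399896-61409466 and MYCN at chr2:15940564-15947007, all on the plus strand. All 8 are protein-coding, with merged exons from 1784 bases in PHOX2A to 7362 bases in ALK. A read assigned to HAND2 may come from its antisense neighbour HAND2-AS1 where the library does not keep the strand, since 867 bases (24.1%) of the HAND2 exons are also exons of HAND2-AS1. The other shared stretches are short: 98 bases of MYCN with MYCNOS, 29 bases of PHOX2A with INPPL1 and 28 bases of TBX2 with an unnamed antisense transcript.

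RefSeq (GRCh38.p14) held promoter windows for 7 of the 8 genes, at 14 transcription starts. The 250 bases before the first listed start are printed for HAND2, ISL1, GATA2 and ALK. HAND2 and ISL1 were called lower with MPP in the scaffold but not on the dish. The responses of GATA2 and ALK to MPP ran in opposite directions. Capitals mark matches, on either strand, to any of 5 short motifs. The E-box bound by MYC and MYCN was searched as CACGTG. An E-box of HAND and TAL proteins was searched as CAGATG. The site of GATA factors was searched as GATAA. A palindrome of homeodomain factors was searched as TAATTA, and a T-box site as AGGTGTGA.
HAND2, chr4:173530230-173530479, minus strand: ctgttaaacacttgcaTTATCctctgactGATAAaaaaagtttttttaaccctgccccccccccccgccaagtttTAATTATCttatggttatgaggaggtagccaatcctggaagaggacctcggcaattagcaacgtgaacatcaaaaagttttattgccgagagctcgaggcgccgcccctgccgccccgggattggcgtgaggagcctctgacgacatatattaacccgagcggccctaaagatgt
ISL1, chr5:51383198-51383447, plus strand: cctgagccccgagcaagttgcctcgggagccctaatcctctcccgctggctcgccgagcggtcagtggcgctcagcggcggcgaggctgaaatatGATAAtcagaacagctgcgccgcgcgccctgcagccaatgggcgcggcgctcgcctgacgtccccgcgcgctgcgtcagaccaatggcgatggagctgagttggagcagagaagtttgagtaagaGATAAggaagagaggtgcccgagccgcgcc
GATA2, chr3:128493202-128493451, minus strand: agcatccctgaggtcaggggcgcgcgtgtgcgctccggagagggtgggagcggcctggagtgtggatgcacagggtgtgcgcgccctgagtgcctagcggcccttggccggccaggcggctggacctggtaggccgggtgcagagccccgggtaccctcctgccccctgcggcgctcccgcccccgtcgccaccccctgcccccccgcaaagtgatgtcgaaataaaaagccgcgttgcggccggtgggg
ALK, chr2:29921587-29921836, minus strand: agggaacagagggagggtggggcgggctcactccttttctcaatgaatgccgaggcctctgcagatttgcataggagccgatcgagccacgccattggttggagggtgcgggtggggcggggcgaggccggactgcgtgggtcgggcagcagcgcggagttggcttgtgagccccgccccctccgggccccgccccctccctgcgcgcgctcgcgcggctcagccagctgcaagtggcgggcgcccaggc

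The HAND2 window held 3 GATAA matches, at 234, 221 and 172 bases before the start, and a TAATTA match at 175 bases that shares bases with the nearest of them. The ISL1 window held 2 GATAA matches, at 155 and 30 bases. No match to the 5 motifs was found in the printed GATA2 and ALK windows, in the PHOX2A and MYCN windows or at the first GATA3 start. Among 35116 RefSeq windows of the same length, 20.4% held the GATA letters and 4.35% the homeodomain palindrome. The MYC E-box was in 6.34% of them, the HAND and TAL E-box in 12.2% and the T-box letters in 0.786%. CACGTG occurred at the other ALK start (117 bases before it) and at the third GATA3 start (64 bases), and GATAA at the sixth GATA3 start (240 bases). The PHOX2A window was the richest of the single-start genes in G and C, at 73.2%, against 65.2% in ISL1, 49.6% in HAND2 and a median of 58% over all windows.

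Libraries held 24589435 to 46359070 reads, with 3D untreated the shallowest at 24589435 to 34658873. Mitochondrially encoded RNA took 9.03 to 13.6% of reads in 2D untreated, 3.83 to 7.97% in 3D untreated, 1.48 to 1.70% in 2D MPP and 2.53 to 2.99% in 3D MPP, so that this share moved with every comparison below, and its part in the results was not tested. Cells on dishes were detached with Accutase and scaffolds were frozen whole, so handling and culture cannot be told apart. Whether the libraries within a group come from separate cultures is not stated, and p-values therefore measure only the spread between these samples. DBH, which makes noradrenaline from dopamine, stood at group means of 94225 ± 9934 to 148730 ± 8378 (mean ± SD, n = 4), while SLC6A2, the noradrenaline transporter, was at 2681.5 ± 90.9 in 2D untreated and 126 ± 27.5 in 3D untreated. Transcription factors listed for midbrain dopamine neurons were low: the 7 of 12 listed genes analysed here summed to 467 to 1107 per library. The largest of the 7 in every group was NEUROG2, at group means of 236 ± 60.1 to 840 ± 49.2, so the sum leans on that gene. NR4A2 was at 2.95 to 7.70 in group means.

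**Figure D1:**
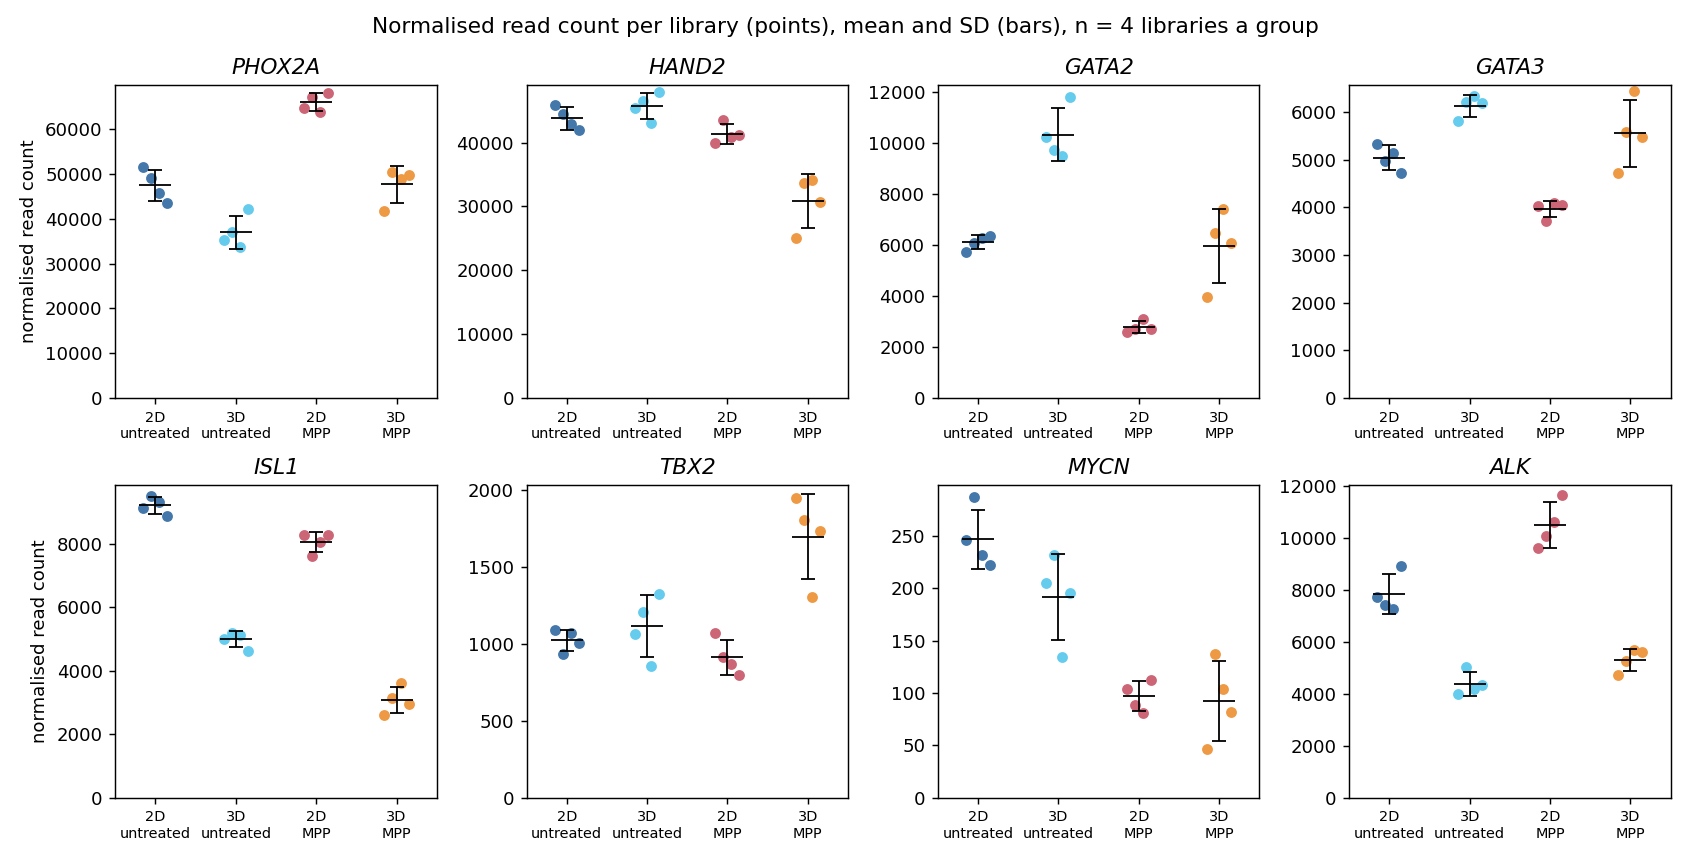
Normalised read count (y axis, from 0) of each of the 8 genes in each library (points) by group (x axis), with the group mean and SD as bars, n = 4 libraries a group. PHOX2A and ALK are highest in 2D MPP, and GATA2 is highest in 3D untreated. The 4 groups do not overlap in ISL1, which is lower in 3D than in 2D with and without MPP. MYCN lies at 137 or less in every MPP library.

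Levels of different genes are compared per kilobase of merged exons. PHOX2A stood first in all 4 groups and HAND2 next, at 26634 ± 1965 and 12165 ± 490 normalised counts per kb in 2D untreated. ISL1, GATA3, GATA2 and ALK followed at 3195 ± 93.0, 1468 ± 76.4, 1373 ± 62.6 and 1066 ± 103. TBX2 at 170.0 ± 11.3 and MYCN at 94.8 ± 10.9 were the 2 lowest in every group. The middle order changed with culture: in 3D untreated GATA2 took the third place, at 2319 ± 234, ahead of GATA3 at 1787 ± 67.0 and ISL1 at 1734 ± 88.3. In 2D MPP ALK rose to the fourth place, at 1426 ± 120.2 per kb, and GATA2 was sixth, at 626 ± 51.5. Read placement along the transcript is not known, so orders between genes of close level are less firm than changes within a gene.

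Tests were made with limma on log2(value + 1), in 1 fit over all genes, and called genes are those whose adjusted p (Benjamini-Hochberg) was under 0.05. With MPP in 2D, 5 of the 8 genes were called, 2 higher and 3 lower, where 34.5% of all genes tested were called (17.7% higher and 16.9% lower). Their median log2 change was -0.18, against 0.020 over all genes. With MPP in 3D, 7 were called, 3 higher and 4 lower, where 34.6% of all genes were (17% higher and 17.6% lower), with a median of -0.36 against 0.0033. Between untreated 3D and 2D, 5 were called, 2 higher and 3 lower, where 46.1% of all genes were (23.2% higher and 23% lower), with a median of -0.15 against 0.010. Between 3D and 2D with MPP, 7 were called, 3 higher and 4 lower, where 38.9% of all genes were (19% higher and 19.9% lower), with a median of -0.29 against 0.0088. The 4 libraries of a group lay wholly to one side of the other 4 for 6 of the 8 genes with MPP in 2D (38.8% of all genes) and for 3 with MPP in 3D (27.6%). They did so for 5 between untreated 3D and 2D (39.7%) and for 7 between 3D and 2D with MPP (37.5%). These comparisons share groups of libraries, so their counts are not independent of each other. In bulk RNA, fewer cells of a type and less RNA per cell cannot be told apart.

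**Figure D2:**
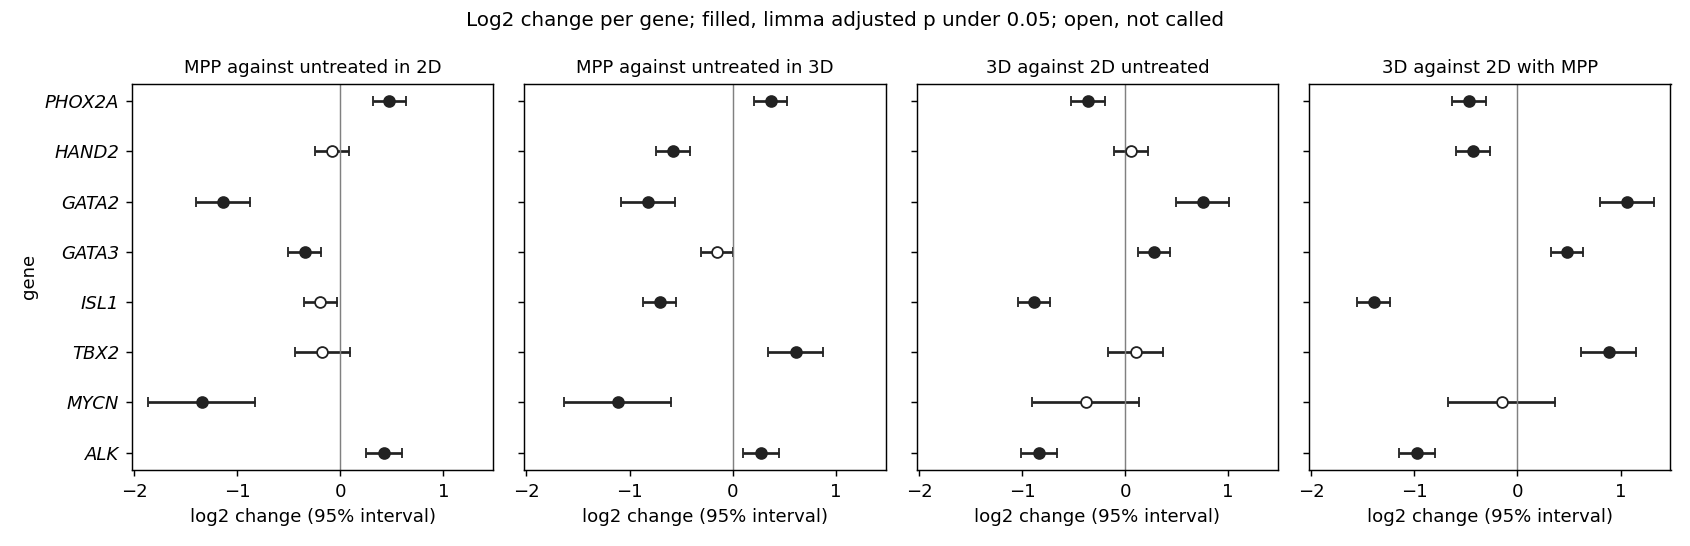
Log2 change of each gene (x axis, with its 95% interval) in 4 comparisons. Filled points have a limma adjusted p under 0.05. PHOX2A and ALK sit to the right of 0 with MPP in both cultures and to the left in both comparisons of 3D with 2D, and GATA2 shows the reverse on all 4 panels.

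The split of all genes into higher and lower calls depended on the scaling. With MPP in 2D, 2998 genes were called higher and 2868 lower as deposited, and 4360 and 1846 with library totals set equal, which moved the median of all genes from 0.020 to 0.12. With MPP in 3D the split was 2882 and 2997 as deposited, 4152 and 2142 with equal totals and 3594 and 2464 with equal totals of nuclear genes. Between untreated 3D and 2D it was 3932 and 3898 as deposited and 3061 and 4937 with equal nuclear totals. Among the 8 genes, only HAND2 changed direction under another scaling, in 2 comparisons where it was not called as deposited (given with HAND2 below).

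PHOX2A (Entrez gene 401), the paired-like homeodomain factor that switches on the noradrenaline-synthesis genes, rose with MPP in both cultures and was lower in 3D. Its 4 libraries gave 51515, 49173, 45704 and 43666 in 2D untreated, and 64891, 67200, 63944 and 68194 in 2D MPP. In 3D untreated they gave 35224, 37065, 33737 and 42155, and in 3D MPP 41684, 50482, 49008 and 49908. Every 2D MPP library was above every other library, and every 3D untreated library was below every 2D untreated one. In 3D the ranges of the MPP and untreated groups overlapped through 3D MPP replicate 1. The mean went from 47514 ± 3505 to 66057 ± 1975 with MPP in 2D (limma log2 0.48, SE 0.078, adjusted p = 6.28e-05). In 3D it went from 37045 ± 3668 to 47770 ± 4103 (log2 0.37, adjusted p = 0.000868). The 3D level was below the 2D level by log2 -0.36 without toxin (adjusted p = 0.000667) and -0.47 with it (adjusted p = 5.29e-05). The MPP effect in 3D minus that in 2D was -0.11 (SE 0.11, adjusted p = 0.567), which was not called.

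ISL1 (Entrez gene 3670), a LIM-homeodomain factor of sympathetic, sensory and motor neurons, had the smallest p of the 8 genes in both comparisons of 3D with 2D. The libraries gave 9123, 9513, 9309 and 8884 in 2D untreated, 8264, 7617, 8065 and 8283 in 2D MPP, 5013.5, 5203, 5138 and 4634 in 3D untreated, and 2613, 3141, 3609.5 and 2954 in 3D MPP. No 2 groups overlapped, in the order 3D MPP, 3D untreated, 2D MPP and 2D untreated from low to high. The mean was 9207 ± 268 in 2D untreated and 4997 ± 254 in 3D untreated (limma log2 -0.88, SE 0.076, adjusted p = 3.54e-09). With MPP it was 8057 ± 309 in 2D and 3079 ± 415 in 3D (log2 -1.40, adjusted p = 2.38e-12). ISL1 was thus among the 2 genes of the 8 called with at least a 2-fold change between 3D and 2D with MPP, where 8.08% of all genes reached that. MPP lowered ISL1 by log2 -0.71 in 3D (adjusted p = 2.33e-07). In 2D the change was -0.19 (95% interval -0.35 to -0.035, adjusted p = 0.0541), not called, although every 2D MPP library lay below every 2D untreated one. 

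HAND2 (Entrez gene 9464), a basic helix-loop-helix factor needed for sympathetic neurons to make noradrenaline, fell with MPP in the scaffold. Its libraries gave 45892, 44550, 42874 and 41914 in 2D untreated, 45433, 46531, 43040 and 47895 in 3D untreated, and 39980, 43527, 40818 and 41166 in 2D MPP. In 3D MPP they gave 24995, 33671, 34081 and 30730, all below every library of the other 3 groups. The mean fell from 45725 ± 2054 to 30869 ± 4191 with MPP in 3D (limma log2 -0.58, SE 0.079, adjusted p = 7.04e-06). In 2D it was 43807 ± 1766 without and 41373 ± 1520 with MPP (log2 -0.082, 95% interval -0.25 to 0.083, adjusted p = 0.451). That estimate was 0.022 with equal library totals. Untreated 3D and 2D differed by log2 0.062 (95% interval -0.10 to 0.23, adjusted p = 0.555). There the estimate was -0.027 with equal nuclear totals and -0.21 with quantile normalisation, which was called (limma adjusted p = 0.0422; 0.0422 to 0.806 over the alternatives). With MPP, 3D was below 2D by log2 -0.43 (adjusted p = 0.000162).

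HAND2-AS1, the antisense transcript that shares exon bases with HAND2 and starts 2959 bases from it, did not follow HAND2. It was looked at after the HAND2 values were seen. It rose with MPP from 2670.1 ± 83.9 to 4017 ± 71.6 in 2D (limma log2 0.59, adjusted p = 2.2e-07) and from 2755 ± 150.0 to 4152 ± 245 in 3D (log2 0.59, adjusted p = 1.68e-07). The 2 effects differed by log2 0.0022 (adjusted p = 0.993). HAND2 therefore fell in 3D while the counts of its overlapping neighbour rose in both cultures.

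GATA2 (Entrez gene 2624), a zinc finger factor of blood and sympathetic development, moved the most of the GATA pair. Its libraries gave 5749.7, 6076, 6282 and 6382 in 2D untreated, 2591, 2721, 3121 and 2725 in 2D MPP, 10261, 9757, 9509.6 and 11832 in 3D untreated, and 3949, 6470.1, 7413.5 and 6077 in 3D MPP. The highest 2D MPP library was under the lowest of every other group, and every 3D untreated library was above all the rest. On the dish MPP lowered the mean from 6122 ± 279 to 2789.5 ± 229.8 (limma log2 -1.14, SE 0.13, adjusted p = 4e-07). In 3D the mean fell from 10340.0 ± 1043 to 5977 ± 1464 (log2 -0.82, adjusted p = 2.4e-05). The level in 3D was higher by log2 0.75 without toxin (adjusted p = 3.91e-05) and 1.07 with it (adjusted p = 6.15e-07). GATA2 and MYCN were the 2 genes of the 8 called with at least a 2-fold change with MPP in 2D, where 6.38% of all genes reached that. The difference of the MPP effects was log2 0.31 (adjusted p = 0.262), not called. Without 3D MPP replicate 1 it was 0.50 and called (limma adjusted p = 0.00463; 0.00463 to 0.494 over the alternatives).

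GATA3 (Entrez gene 2625), the GATA factor without which sympathetic neurons do not survive or make noradrenaline, moved in the same directions as GATA2 by smaller amounts. Its libraries gave 5339, 4986, 5140.0 and 4717 in 2D untreated, 4032, 3711, 4087 and 4047 in 2D MPP, 5806, 6209, 6338 and 6202 in 3D untreated, and 4731, 5583, 6437 and 5474 in 3D MPP. The 2D MPP libraries were the lowest, and the 3D MPP group overlapped both untreated groups. The mean fell from 5045 ± 262 to 3969 ± 174 with MPP in 2D (limma log2 -0.35, SE 0.076, adjusted p = 0.00115). In 3D it was 6139 ± 230.2 without and 5556 ± 699 with MPP, a log2 change of -0.15 (95% interval -0.31 to 0.0051, adjusted p = 0.128) that was not called. Without 3D MPP replicate 3 it was -0.23 and called (limma adjusted p = 0.0189; 0.0189 to 0.613 over the alternatives). GATA3 was higher in 3D by log2 0.28 without toxin (adjusted p = 0.00389) and 0.48 with it (adjusted p = 2.94e-05).

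TBX2 (Entrez gene 6909), the T-box repressor of cell cycle inhibitors, was the only one of the 8 that rose with MPP in 3D without being called higher in 2D. Its libraries gave 1087, 936, 1068 and 1009 in 2D untreated, 1070.0, 913, 872 and 798 in 2D MPP, 1067, 1206, 856 and 1326 in 3D untreated, and 1948, 1808, 1303 and 1734 in 3D MPP. The first 3 of these groups overlapped, and 3 of the 4 libraries of 3D MPP lay above all of them. The mean in 3D went from 1114 ± 202 to 1698 ± 278 with MPP (limma log2 0.61, SE 0.13, adjusted p = 0.000803). In 2D it was 1025 ± 67.9 without and 913 ± 115 with MPP (log2 -0.17, 95% interval -0.44 to 0.096, adjusted p = 0.322). Untreated 3D and 2D differed by log2 0.10 (95% interval -0.16 to 0.37, adjusted p = 0.542). With MPP, 3D was above 2D by log2 0.89 (adjusted p = 1.06e-05), with no overlap of the ranges.

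MYCN (Entrez gene 4613), the MYC family factor of this lineage, was the lowest of the 8 genes and fell with MPP in both cultures. Its libraries gave 246, 287, 232 and 222 in 2D untreated, 205, 231, 135 and 195 in 3D untreated, 104, 88.9, 81.3 and 113 in 2D MPP, and 47.0, 137, 104 and 81.9 in 3D MPP. All 2D MPP libraries were below all untreated ones. In 3D the highest MPP library, replicate 2, was just above the lowest untreated one, replicate 3. On the dish the mean was 247 ± 28.5 without and 96.8 ± 14.2 with MPP (limma log2 -1.35, SE 0.25, adjusted p = 0.000225), and in the scaffold 192 ± 40.8 and 92.5 ± 38.0 (log2 -1.12, adjusted p = 0.00127). Untreated 3D and 2D differed by log2 -0.38 (95% interval -0.90 to 0.13, adjusted p = 0.217). With MPP they differed by -0.15 (95% interval -0.67 to 0.36, adjusted p = 0.661). Without 3D MPP replicate 1 this last estimate was 0.13 (limma adjusted p = 0.673; 0.242 to 0.873 over the alternatives), so its sign rested on that library.

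ALK (Entrez gene 238), the receptor tyrosine kinase, rose with MPP and was lower in the scaffold, as PHOX2A was. Its libraries gave 7737.5, 7423, 7290.3 and 8945 in 2D untreated, 9620.4, 10078, 10619 and 11677 in 2D MPP, 4002, 5046, 4192 and 4333 in 3D untreated, and 4748, 5279, 5681 and 5599 in 3D MPP. Every 2D library was above every 3D library, and the 2 groups within 3D overlapped. Without toxin the mean was 7849 ± 755 in 2D and 4393 ± 456 in 3D (limma log2 -0.84, SE 0.084, adjusted p = 3.73e-08). With MPP it was 10499 ± 885 in 2D and 5327 ± 423 in 3D (log2 -0.98, adjusted p = 5.11e-09). MPP raised ALK by log2 0.42 in 2D (adjusted p = 0.000499) and 0.28 in 3D (adjusted p = 0.0125). The 2 effects differed by log2 -0.14 (adjusted p = 0.484), which was not called.

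The MPP effect in 3D minus that in 2D asks whether culture changed the response to the toxin, and 3 of the 8 genes were called, 1 higher and 2 lower, where 15.3% of all genes were (7% higher and 8.32% lower). TBX2 had the largest difference, log2 0.78 (limma SE 0.18, adjusted p = 0.00445). ISL1 differed by -0.51 (SE 0.11, adjusted p = 0.00178) and HAND2 by -0.49 (SE 0.11, adjusted p = 0.00369). HAND2 and ISL1 thus fell in the scaffold, with no call on the dish, and TBX2 rose in the scaffold. Of the other 5, GATA3 differed by 0.19 (adjusted p = 0.247) and MYCN by 0.23 (adjusted p = 0.727). All 3 calls were kept without 3D MPP replicate 1, at 0.71, -0.44 and -0.40 in the same order.

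**Figure D3:**
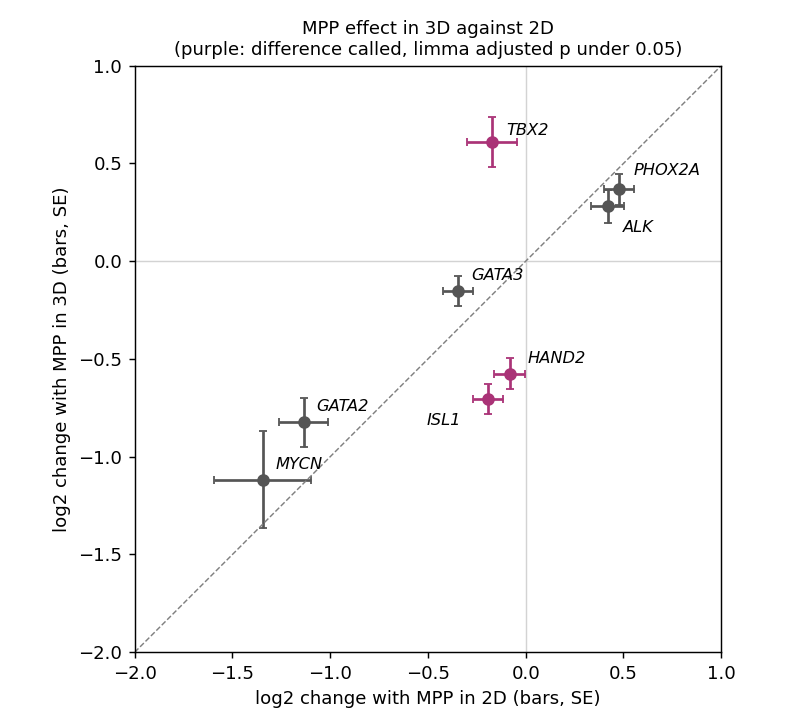
Log2 change with MPP in 3D (y axis) against that in 2D (x axis) for each gene, bars giving the SE, with a dashed line of equal effects. TBX2 lies above the line and HAND2 and ISL1 below it (purple, difference called), and the other 5 genes lie closer to it.

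Within the 3D MPP group the libraries differed in the same direction across most of the 8 genes. Replicate 1 was the lowest of its group for 7 of the 8 and the highest for TBX2. Its median deviation from the group mean was log2 -0.23 over the 8 genes and 0.0089 over all genes tested. The size factors set the typical gene to about the same level in every library. This contrast therefore cannot show whether the shift was particular to the 8 genes. Replicate 3 was the highest for 5 of the 8, with a median deviation of 0.19, and the lowest for TBX2. No other library was lowest in more than 5 of the 8 genes. Without replicate 1 the changes with MPP in 3D were -0.48 in HAND2, -0.64 in GATA2, -0.63 in ISL1, -0.83 in MYCN, 0.54 in TBX2, 0.43 in PHOX2A and 0.33 in ALK, all still called by limma.

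**Figure D4:**
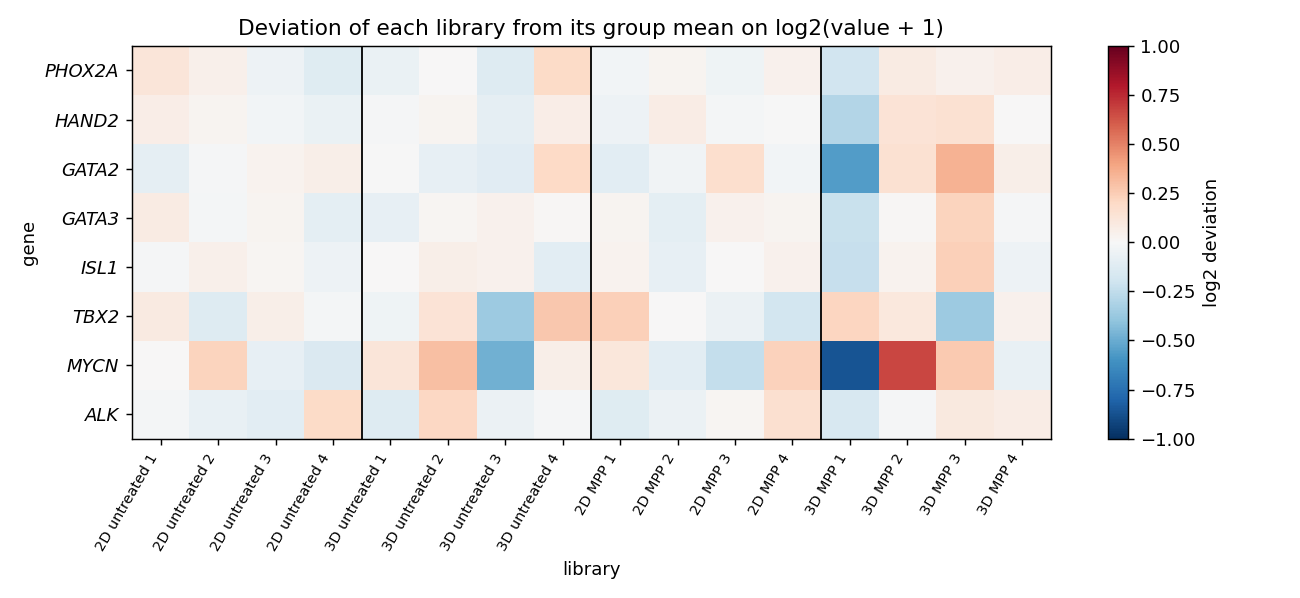
Log2 deviation of each library (x axis, groups parted by lines) from the mean of its group for each of the 8 genes (y axis), red above and blue below the mean. The column of 3D MPP replicate 1 is blue for every gene except TBX2, with MYCN the deepest, and replicate 3 of that group is red for every gene except TBX2.

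Over the 16 libraries, which share their groups and depth, 2 sets of genes ran against each other. GATA2 and GATA3 went together at Pearson r = 0.93, and PHOX2A and ALK at 0.86. GATA2 ran against PHOX2A at -0.87 and against ALK at -0.82, and GATA3 did so at -0.80 and -0.85. ISL1 and TBX2 had r = -0.84. With the group means removed, GATA2 and GATA3 kept r = 0.69 and ISL1 and TBX2 had -0.63, but PHOX2A and ALK had 0.23, and PHOX2A with GATA2 turned to 0.56. The closeness of PHOX2A and ALK thus lay in the group means. That of GATA2 and GATA3 with group means removed rested largely on 3D MPP, where replicate 1 lay below the group mean (-0.56 in GATA2, -0.22 in GATA3) and replicate 3 above it (0.35 and 0.22), and in 2D untreated the replicate highest in GATA2 was the lowest in GATA3. The same libraries of 3D MPP weighed on other pairs. ISL1 and TBX2 deviated there by -0.23 and 0.21 in replicate 1, and by 0.24 and -0.37 in replicate 3. PHOX2A and GATA2 deviated by -0.19 and -0.56 in replicate 1. HAND2 went with MYCN at 0.76 over all libraries and at 0.82 with group means removed, 3D MPP replicate 1 being the lowest of its group in both.

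Among 13076 other genes with a mean of 50 or more, those whose log2 values ran closest to each of the 8 over the 16 libraries were as follows, as a description of these libraries. For PHOX2A they were ADCY5 (r = 0.982), an adenylyl cyclase, CCM2 (0.971) and MMP24 (0.971). For ALK they were BACH2 (0.987), GPR161 (0.986) and B3GALNT1 (0.984). For ISL1 the closest was ACTB (0.989), the beta-actin gene often used to scale other measurements, followed by RDH10 (0.987) and SLC8A3 (0.982). ACTB itself went from 92824 in 2D untreated and 85579 in 2D MPP to 53812 and 34567 in the 2 scaffold groups, in the same order of groups as ISL1. GATA2 ran closest to ZNF503 (0.969), TOP3A (0.968) and PPIF (0.967), and GATA3 to CBFB (0.960), TOP3A (0.950) and LYN (0.949). HAND2 ran closest to PFKFB3 (0.954), DBNL (0.937) and TBC1D9B (0.935). MYCN ran closest to HYAL3 (0.954), TSPAN12 (0.944) and MTMR1 (0.930). TBX2 ran closest to CTSD (0.941), which codes for a lysosomal protease, POR (0.901) and TCFL5 (0.901), the loosest of these likenesses.

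Close relatives of the 8 genes did not all follow them. HAND1, the paralog of HAND2, fell with MPP in both cultures, from 2938 ± 229 to 1372 ± 60.1 in 2D (limma log2 -1.10, adjusted p = 8e-10) and from 3118 ± 147 to 1504 ± 154 in 3D (log2 -1.06, adjusted p = 8.06e-10). TBX3, the paralog of TBX2, was lower in 3D, at 1438 ± 185 against 3698 ± 83.1 without toxin (log2 -1.37, adjusted p = 1.71e-11). With MPP it rose in 2D by 0.39 (adjusted p = 0.0014), where TBX2 was not called. Its change with MPP in 3D, where TBX2 rose, was 0.12 (adjusted p = 0.314). GATA4 was higher in untreated 3D by 0.59 (adjusted p = 1.28e-06), as the 2 GATA genes of the set were, but GATA5 was lower there by -0.80 (adjusted p = 0.00435) and rose with MPP in 3D by 1.32 (adjusted p = 5.76e-05), where GATA2 fell. LTK, the kinase closest to ALK, was lower in 3D by -1.07 without toxin (adjusted p = 0.000153) and by -1.49 with it (adjusted p = 4.07e-06), as ALK was, but with MPP it changed by -0.14 in 2D (adjusted p = 0.636) and fell by 0.55 on the log2 scale in 3D (adjusted p = 0.036), where ALK rose. MYCL rose with MPP as MYCN fell, from 412 ± 36.8 to 747 ± 79.8 in 2D (log2 0.86, adjusted p = 1.33e-05) and from 552 ± 102 to 1408 ± 158 in 3D (log2 1.36, adjusted p = 1.59e-08). MYC was low in all groups, at means of 8.65 to 27.4, and was not called in any comparison. Of 11 paralogs tested, MPP raised 3 and lowered 2 in 2D and raised 2 and lowered 2 in 3D. Between the cultures, 3 were higher and 4 lower in untreated 3D, and 3 and 3 in 3D with MPP. Of all genes, 34.5% were called with MPP in 2D, 34.6% with MPP in 3D, 46.1% between the untreated cultures and 38.9% between those with MPP. These shares of all genes also apply to the list counts below.

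Of 18 other transcription factors of the noradrenergic state, MPP raised 3 and lowered 6 in 2D (median log2 -0.15, against 0.020 over all genes) and raised 4 and lowered 7 in 3D (-0.14, against 0.0033). In untreated 3D against 2D, 3 were higher and 10 lower (-0.31, against 0.010), and with MPP 2 were higher and 10 lower (-0.36, against 0.0088). KLF7 took the course of PHOX2A and ALK, rising with MPP in 2D from 7728 ± 375 to 10368 ± 855 (limma log2 0.42, adjusted p = 0.000211) and lying lower in 3D with MPP (log2 -1.24, adjusted p = 2.38e-11). HEY1, a Notch target, took the course of GATA2 in the scaffold, at 4362 ± 321 in 3D untreated against 1435 ± 66.1 in 2D, and fell there with MPP (log2 -1.45, adjusted p = 3.47e-13). INSM1, a zinc finger factor of neuroendocrine cells, stood at 1.18 ± 2.36 in 2D untreated, 0 in 2D MPP, 701 ± 54.5 in 3D untreated and 114 ± 38.1 in 3D MPP.

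Factors of the opposing mesenchymal state moved in both directions. Of 21 tested, 4 rose and 1 fell with MPP in 2D, where 34.5% of all genes were called (median log2 0.18, against 0.020). With MPP in 3D, 1 rose and 6 fell, where 34.6% of all genes were called (-0.16, against 0.0033). In untreated 3D, 4 were higher and 5 lower, where 46.1% of all genes were called (-0.14, against 0.010). In 3D with MPP, 1 was higher and 9 lower, where 38.9% of all genes were called (-0.32, against 0.0088). SOX9 was higher in untreated 3D by log2 1.57 (limma adjusted p = 1.46e-10) and with MPP in 2D by 1.24 (adjusted p = 2.21e-08). The 1 gene higher in 3D with MPP was ID1, by 1.56 (adjusted p = 7.06e-06). Among the 9 lower there were EGR3, by -2.07 (adjusted p = 3.78e-06), and FOSL1, by -1.49 (adjusted p = 0.000629). Among the 6 that fell with MPP in 3D were EGR3, by -1.39 (adjusted p = 0.00048), and FOSL2, by -0.94 (adjusted p = 1.17e-05). PRRX1, a factor that can bring on that state, was under the filter on low values and was not tested. It was at 0 in all groups but 3D MPP, at 2.78 ± 5.56, where a single library held all 12 reads. Markers of mesenchymal cells, 11 genes, summed to 11625 to 17434 per library, with 3 higher and 7 lower in untreated 3D, and markers of Schwann cells and glia, 8 genes, summed to 739 to 1115, with SOX10 at 0 to 1.82 in group means. The part of such cells in the results for the 8 genes was not tested.

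The products of the noradrenergic programme split between the cultures. Of 17 product genes tested, 5 were higher and 9 lower in untreated 3D against 2D (median log2 -0.28, against 0.010 over all genes), and 5 and 11 with MPP (-0.66, against 0.0088). DBH was lower in untreated 3D than in 2D, as PHOX2A was, by -0.37 (limma adjusted p = 0.000756). With MPP, where PHOX2A rose in both cultures, DBH did not rise. It changed by -0.21 in 2D (adjusted p = 0.0544, not called) and by -0.29 in 3D (adjusted p = 0.00808, called lower). TH, the rate-limiting enzyme of catecholamine synthesis, was higher in the untreated scaffold, where DBH was lower. It went from 341 ± 25.8 in 2D to 5585 ± 823 in 3D without toxin (log2 4.02, adjusted p = 2.21e-18). With MPP the 17 genes split into 7 higher and 5 lower in 2D and 6 and 6 in 3D. TH was among the higher in 2D, by log2 0.79 (limma adjusted p = 5.27e-06). In 3D it was among the lower, by -0.39 (adjusted p = 0.00661).

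Of 20 tested partners that bind with the 8 factors, MPP raised 1 and lowered 4 in 2D (where 34.5% of all genes were called; median log2 -0.022, against 0.020) and raised 6 and lowered 3 in 3D (34.6% of all genes; median 0.11, against 0.0033). In untreated 3D 3 were higher and 9 lower (median -0.16, against 0.010), and 4 and 7 with MPP (-0.015, against 0.0088). ZFPM1, the cofactor known as FOG1 that binds GATA proteins, took the same course as GATA2 in the scaffold, at 675 ± 31.4 in 2D untreated, 2637 ± 385 in 3D untreated and 1028 ± 134 in 3D MPP, but in 2D MPP it was 724 ± 35.6 while GATA2 fell. LMO1, a LIM-only bridging protein known as a neuroblastoma risk gene, fell with MPP in 3D (limma log2 -0.75, adjusted p = 0.00014). It was also called lower with MPP in 2D (log2 -0.36, adjusted p = 0.0427).

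Genes around MYCN were followed in a pair of lists. Of 15 MYC network genes (dimer partners, antagonists and regulators of stability), MPP raised 2 and lowered 7 in 2D (median log2 -0.30), and raised 0 and lowered 4 in 3D (-0.13). MXD4, an antagonist of MYC proteins, fell with MPP from 3416 ± 188 to 1733 ± 123 on the dish (limma log2 -0.98, adjusted p = 1.02e-07) and by -0.96 in 3D (adjusted p = 1.14e-07). AURKA, a kinase that shields MYCN protein from breakdown, fell with MPP in 2D by -1.12 (adjusted p = 0.00036). It was not called with MPP in 3D (-0.26, adjusted p = 0.382), where MYCN fell. In untreated 3D it was lower than in 2D by -1.29 (adjusted p = 4.32e-05), where MYCN was not called. Of 19 MYC target genes, MPP raised 2 and lowered 10 in 2D (median -0.23) and raised 3 and lowered 6 in 3D (-0.045), and 8 were higher and 3 lower in untreated 3D (0.15). With MPP, where MYCN itself was not called between the cultures, 13 of the 19 were higher and 1 lower in 3D (0.35, against 0.0088 over all genes). ODC1, a classical MYC target of polyamine synthesis, rose with MPP in both cultures while MYCN fell, from 12826 ± 429 to 14699 ± 190.1 in 2D (log2 0.20, adjusted p = 0.00775) and from 19345 ± 773 to 24185 ± 896 in 3D (log2 0.32, adjusted p = 8.57e-05). Other targets fell in both cultures, as MYCN did. PTMA fell by log2 -0.88 in 2D (limma adjusted p = 8.8e-09) and -0.45 in 3D (adjusted p = 7.08e-05). NME1 fell by -0.66 in 2D (adjusted p = 0.000247) and -0.65 in 3D (adjusted p = 0.000244).

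Among genes of ALK signalling, more were lower than higher in the scaffold, where ALK was lower. Of 22 ligand and signalling genes tested, 2 were higher and 11 lower in untreated 3D against 2D (median log2 -0.43, against 0.010 over all genes), and 2 and 12 with MPP (-0.36, against 0.0088). The feedback phosphatase DUSP4 fell from 4336 ± 278 to 1601 ± 186 in untreated 3D, and DUSP5 and DUSP6 were lower by log2 -0.62 and -0.61. The ETS factors ETV1, ETV4 and ETV5 were lower by -0.81, -0.63 and -0.72, and SPRY4 by -0.58. VIP, a neuropeptide gene known to answer ALK, went from 1335 ± 192 to 209 ± 28.0 (limma log2 -2.67, adjusted p = 1.86e-13). VGF went against this, higher by 1.09 (adjusted p = 6.62e-10). Of the ligands, PTN was lower in 3D by -1.801 (adjusted p = 6.65e-12) and MDK higher by 0.74 (adjusted p = 1.33e-08), and ALKAL2 was near silent at means of 5.85 to 14.8. These genes answer other receptor kinases as well.

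With MPP in 2D, where ALK rose, 8 of the 22 genes rose and 3 fell (median 0.067, against 0.020). ETV4 rose from 2260.3 ± 103 to 3440 ± 233 (limma log2 0.60, adjusted p = 9.07e-06) and ETV5 by 0.37, whereas ETV1 fell by 0.41 on the log2 scale. In 3D, 5 rose and 3 fell with MPP (-0.029, against 0.0033). SPRY2, an inhibitor of receptor kinase signalling, fell there by 1.00 on the log2 scale (adjusted p = 1.49e-06). It was also called lower with MPP in 2D (log2 -0.33, adjusted p = 0.0446).

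**Figure D5:**
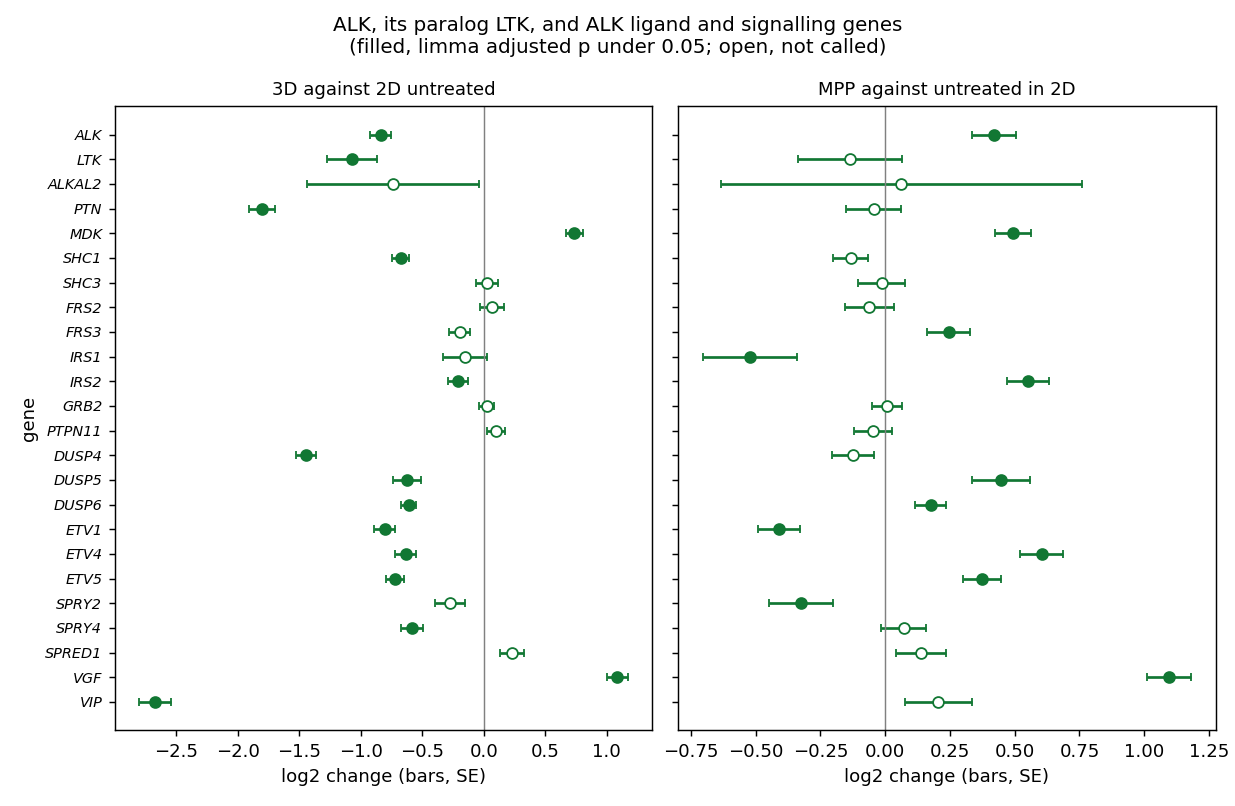
Log2 change with its SE (x axis) of ALK, its paralog LTK and 22 ALK ligand and signalling genes (y axis), for untreated 3D against 2D on the left and for MPP in 2D on the right, the 2 panels with different scales. Filled points have a limma adjusted p under 0.05. On the left 11 of the 22 are called lower and 2 higher, and on the right 3 lower and 8 higher.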

How the data were processed

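Poly-A RNA of 16 libraries was sequenced. The authors deposited a signal, read counts per gene divided by a size factor for each library. The submitters' processing notes name build GRCh38.p13 and the tools CASAVA 1.8.2, FastQC, STAR, featureCounts, and DESeq2 for the scaling. Annotation, settings and the kit's strandedness: not given in the sources used here. Whole reads were recovered from 100.0% of the values (tolerance 0.01 reads), and read totals give the depth. Intervals cover the spread between libraries only.

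Groups and replicate numbers came from the titles. limma 3.58.1 (R 4.3.3) was run on log2(value + 1) with the trend option, for the 16984 genes with 10 or more in at least 4 libraries, in 1 fit of 4 groups, with Benjamini-Hochberg adjustment over all genes. Fold changes on this scale understate those of low genes. The script was tested on simulated data. Every pair of libraries within a group differed beyond sampling noise (chi-square per degree of freedom 6.58 or more over 24 pairs). Replicate numbers were not treated as pairs: same-numbered libraries had residual correlations of -0.11 to 0.090. Alternatives were other scalings, pseudocounts of 0.5 and 5, other filters, only the groups compared, robust empirical Bayes, a replicate block, edgeR 4.0.16 and DESeq2 1.42.0 on the recovered reads, and each library left out in turn.

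The 8 genes and the gene lists were chosen with earlier results of these data known. Beside the 8 genes, the text names the 3 genes that run closest to each, TH, DBH and MYC. For each list and comparison the rule takes up to 2 called genes in each direction (mean of 50 or more). The text names only some of these list genes, picked with their values known. List genes named outside this rule (DUSP4, DUSP5, DUSP6, ETV5, SPRY4, PRRX1, SOX10, NR4A2 and ALKAL2) and the antisense genes were chosen after their values were seen. A gene taken by this rule but not reported here was not replaced by another. Lists are described by counts and medians, with no test of the list. Gene places came from GENCODE version 29, promoter windows from RefSeq (GRCh38.p14).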

Additional observations from a re-analysis of the deposited data

Results flagged for a closer look

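In a group of 4 libraries, a library was taken to stand apart where its gap to the nearest other library was over 0.829 of the group's range. This held in 2 of the 32 sets of values (8 genes in 4 groups), and chance gives about 1 in 20. PHOX2A in 3D MPP replicate 1, at 41684, stood below the other 3 libraries at 49008 to 50482. GATA3 in 2D MPP replicate 2, at 3711, stood below the other 3 at 4032 to 4087. The effect of MPP differed between 3D and 2D by limma's test of the difference itself for 3 genes: HAND2 at log2 -0.49 (adjusted p = 0.00369), ISL1 at -0.51 (adjusted p = 0.00178) and TBX2 at 0.78 (adjusted p = 0.00445). All 4 libraries of 3D MPP were below all 4 of 3D untreated for HAND2 and ISL1, and 3 of the 4 were above all 4 for TBX2.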

How the results depend on the processing

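Of 896 recomputed values for the 8 genes, 885 kept their direction and their side of the threshold. A further 7 kept their direction and gained a call, 4 changed sign and 0 lost a call. Signs changed for HAND2 with MPP in 2D at equal library totals (0.022). They changed for HAND2 between untreated 3D and 2D at equal nuclear totals (-0.027) and with quantile normalisation (-0.21). The value with quantile normalisation also gained a call, as lower (limma adjusted p = 0.0422), and is counted here only as a sign change. The last sign change was MYCN between 3D and 2D with MPP without 3D MPP replicate 1 (0.13, in a range of -0.38 to 0.13 over the libraries left out). Of the 7 gained calls, 5 were ISL1 with MPP in 2D, at limma adjusted p = 0.0235 with equal nuclear totals, 0.048 with quantile normalisation, 0.049 with a mean of 50 or more and 0.0044 with only the groups compared, and 0.0495 in DESeq2 (0.0044 to 0.404 over all its alternatives). The cause of these changes was not tested. The number of the 8 genes called, in the order of MPP in 2D, MPP in 3D, 3D against 2D untreated, 3D against 2D with MPP and the difference, ranged over libraries left out from 5 to 5, 7 to 8, 5 to 5, 7 to 7 and 3 to 4. Numbers of all genes called ranged from 4771 to 5510, 5247 to 5717, 7017 to 7626, 5683 to 6293 and 2142 to 2912. With the replicate block 5, 7, 5, 7 and 3 of the 8 genes were called, and 5675, 5706, 7634, 6451 and 2436 of all genes, against 5866, 5879, 7830, 6615 and 2602 without it, and the block changed no call of the 8 genes. With edgeR on the recovered reads 5, 7, 5, 7 and 3 of the 8 were called, and 5876, 5815, 7722, 6677 and 2571 of all genes. In the difference of effects, 1189 genes were called higher and 1413 lower as deposited, and 2128 and 1053 with equal nuclear totals (median over all genes -0.019 and 0.085). Depth limits MYCN most, the gene of the 8 with the fewest reads.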

Other observations

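Antisense genes beside the other members were read after their values were seen, and without strand their reads cannot be told apart from unspliced or overlapping reads of the gene opposite. GATA3-AS1, which shares no exon bases with GATA3, was higher in 3D, at 1378 ± 167 against 717 ± 95.05 without toxin (limma log2 0.94, adjusted p = 3.37e-05) and at 961 ± 218 against 595 ± 108 with it (log2 0.67, adjusted p = 0.0015). It fell with MPP in 3D by 0.55 on the log2 scale (adjusted p = 0.00877), where GATA3 itself was not called. GATA2-AS1 fell with MPP in 2D from 332 ± 65.6 to 218 ± 24.7 (log2 -0.59, adjusted p = 0.0187), as GATA2 did, and was called in no other comparison. TBX2-AS1 was called in none, at group means of 28.8 to 54.8. MYCNOS, under the filter on low values, stood at 1.83 to 4.30.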
